A study of Mus musculus with 3 samples.

Results

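The genes described here encode the nuclear subunits of the oxidative phosphorylation machinery of mitochondria. They were chosen by symbol: every protein-coding gene whose name begins with Ndufa, Ndufb, Ndufc, Ndufs or Ndufv and a digit, with Uqcr, with Cox and a digit for subunits IV to VIII, or with Atp5, together with Sdha, Sdhb, Sdhc and Sdhd. Of 93 matching symbols, 10 pseudogenes were left out, which left 83 genes of the 49120 gene symbols in the series. Of these 83 genes, 77 were measured, meaning that their mean over the 3 libraries was at least 1 scaled FPKM (FPKM are fragments per M mapped fragments and per kilobase of transcript, where M is mega, and median-of-ratios factors put the libraries on a common scale). The measured genes were 35 of complex I, 4 of complex II, 8 of complex III, 13 of complex IV and 17 of complex V.

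The study profiled the RNA of 3 cell populations sorted from the back-skin epidermis of 7-week-old wild-type C57BL/6 mice in second telogen, the resting phase of the hair cycle. Basal bulge stem cells (B) were CD34-positive with high integrin alpha 6 (Itga6), suprabasal bulge stem cells (S) were CD34-positive with low Itga6, and non-stem cells (N) were CD34-negative. The bulge is the region of the hair follicle that houses its stem cells, and N holds all CD34-negative epidermal cells together, not 1 defined cell type. RNA from 4 mice was pooled for each population and preamplified before sequencing, so there was 1 library per group and every difference below lacks a replicate check. Depth was 32.7 M fragments for B, 31.3 M for S and 35.5 M for N, and intervals given for single genes are 95% counting intervals that leave out amplification and differences between mice. The design sets each bulge population beside the other epidermal cells, and the suprabasal beside the basal bulge.

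Oxidative phosphorylation makes ATP in the inner mitochondrial membrane. Complexes I (NADH dehydrogenase) and II (succinate dehydrogenase) pass electrons to ubiquinone, complex III (cytochrome bc1) passes them on to cytochrome c, and complex IV (cytochrome c oxidase) hands them to oxygen. Complexes I, III and IV pump protons, whose return through complex V (ATP synthase) drives ATP synthesis. Complex II is encoded entirely in the nucleus, while the other complexes also need subunits encoded by mitochondrial DNA. Adult stem cells are often described as more glycolytic than their progeny, and hair follicle stem cells have been studied in that light.

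The sort and the epidermal origin were visible in the libraries. Cd34 was at 144 scaled FPKM in B and 215 in S, against 0.201 in N. Itga6 was at 49.3 in B and 33.1 in S, against 115 in N. The epidermal keratin gene Krt5 was at 810.3 in B, 959 in S and 818 in N. Other keratins were uneven: Krt14, its basal-layer partner, was at 277 in B and 12.7 in S, against 588 in N, and Krt15, a keratin known from the bulge, was at 1855 in B and 3641 in S, against 1014 in N. None of 5 skeletal muscle, 5 fat and 5 melanocyte markers found in the files was measured, and their sums stayed at or below 1.43 scaled FPKM in each library. Of these, 1 muscle and 2 fat markers were listed at 0 throughout, and the highest muscle marker was Ckm at 0.841. Of 5 Langerhans and T cell markers, 2 were measured, H2-Aa and Cd74, and the list summed to 8.48 in B and 9.81 in S, against 21.6 in N. Of 5 fibroblast markers 1 was measured, Col1a2, and the list summed to 1.98 in B and 2.19 in S, against 0.135 in N. The part of these other cells in the differences below was not tested.

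Many subunit genes are known to be controlled by nuclear respiratory factor 1 (NRF1) and by GABPA, also called nuclear respiratory factor 2, whose binding motifs lie close to transcription starts. RefSeq promoters (build GRCm38.p6) were at hand for 63 measured subunit genes, and the 250 bases before the start were searched on both strands. The NRF1 motif, GCGCA and GCGC around 1 base of any kind, was found in 13 of them (20.6%), against 5.84% of 17492 genes with a promoter of that length. The GABPA motif CCGGAAG was found in 12 (19.0%), against 10.2%, the ERRA motif AAGGTCA in 5 (7.94%), against 4.18%, and the YY1 motif AAGATGGCG in 1 (1.59%), against 0.84%. The promoters of 4 genes are shown over the 150 bases before the start, 5′ to 3′ in the direction of the gene, with matched motifs in capitals. Ndufa11 had the largest B over N ratio of the subunit genes, Cox6a1 is an abundant complex IV gene with both motifs, and Ndufc2 and Ndufs8 were the complex I genes that differed most between S and B.
Ndufa11 (chr17:56717612-56717761, plus strand): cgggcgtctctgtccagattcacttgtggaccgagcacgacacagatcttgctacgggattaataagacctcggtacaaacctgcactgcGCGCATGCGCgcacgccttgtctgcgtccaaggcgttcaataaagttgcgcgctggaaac
Cox6a1 (chr5:115348959-115349108, minus strand): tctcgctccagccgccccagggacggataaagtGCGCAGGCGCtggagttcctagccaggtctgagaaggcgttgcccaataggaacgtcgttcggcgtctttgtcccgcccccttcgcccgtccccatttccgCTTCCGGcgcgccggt
Ndufc2 (chr7:97399853-97400002, plus strand): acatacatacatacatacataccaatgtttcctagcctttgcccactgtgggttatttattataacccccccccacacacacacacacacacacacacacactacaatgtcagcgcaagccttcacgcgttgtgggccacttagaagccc
Ndufs8 (chr19:3912775-3912924, minus strand): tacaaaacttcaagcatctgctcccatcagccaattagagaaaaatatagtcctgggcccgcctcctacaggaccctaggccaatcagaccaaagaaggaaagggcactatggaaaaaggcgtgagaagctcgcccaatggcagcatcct
In Ndufa11 and Cox6a1 the NRF1 match is the 10-letter run that begins with GCGCA, and in Cox6a1 the capitals near the start are the GABPA motif on the other strand. Ndufc2 and Ndufs8 held none of these letters in the 250 bases searched. The median log2 ratio of B over N was 0.09 for the 13 genes with the NRF1 motif and -0.25 for the measured genes without it, for S over N it was -0.08 and -0.24, and for S over B it was -0.09 and 0.04. For the GABPA motif the medians with and without it were -0.31 and -0.13 for B over N, -0.28 and -0.20 for S over N, and 0.07 and 0.04 for S over B. For the ERRA motif they were -0.13 and -0.23, -0.32 and -0.20, and -0.12 and 0.05 in the same comparisons. Of promoters not shown, those of Ndufb10, higher in both bulge libraries over N, and Cox7c, lower in both, held none of these motifs. Whether the motifs bear on the ratios was not tested.

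The subunit genes were abundant in all 3 populations, and their levels sat close together. Their median level was 47.1 scaled FPKM in B and 46.8 in S, against 54.7 in N, where all measured protein-coding genes had medians of 5.34, 5.65 and 5.38 in the same order. Added up, the subunit genes held 2.77% of the nuclear protein-coding FPKM in B and 2.76% in S, against 3.11% in N. In whole-population RNA of this kind, fewer cells of a type and less RNA per cell cannot be told apart. For 58 of 77 subunit genes (75.3%) the highest of the 3 levels was less than 1.5 times the lowest, after adding the pseudocount of 1, against 51.6% of all measured genes and 55.2% of genes with a mean of at least 10. For 40 of them (51.9%) the levels lay within 1.3 times of each other, against 30.7% of all measured genes. N was highest for 48 subunit genes (62.3%), against 40.4% of all measured genes and 47.5% of genes with a mean of at least 10. S was highest for 22 (28.6%, against 39.1% and 37.9%) and B for 7 (9.09%, against 20.5% and 14.6%).

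**Figure D1:**
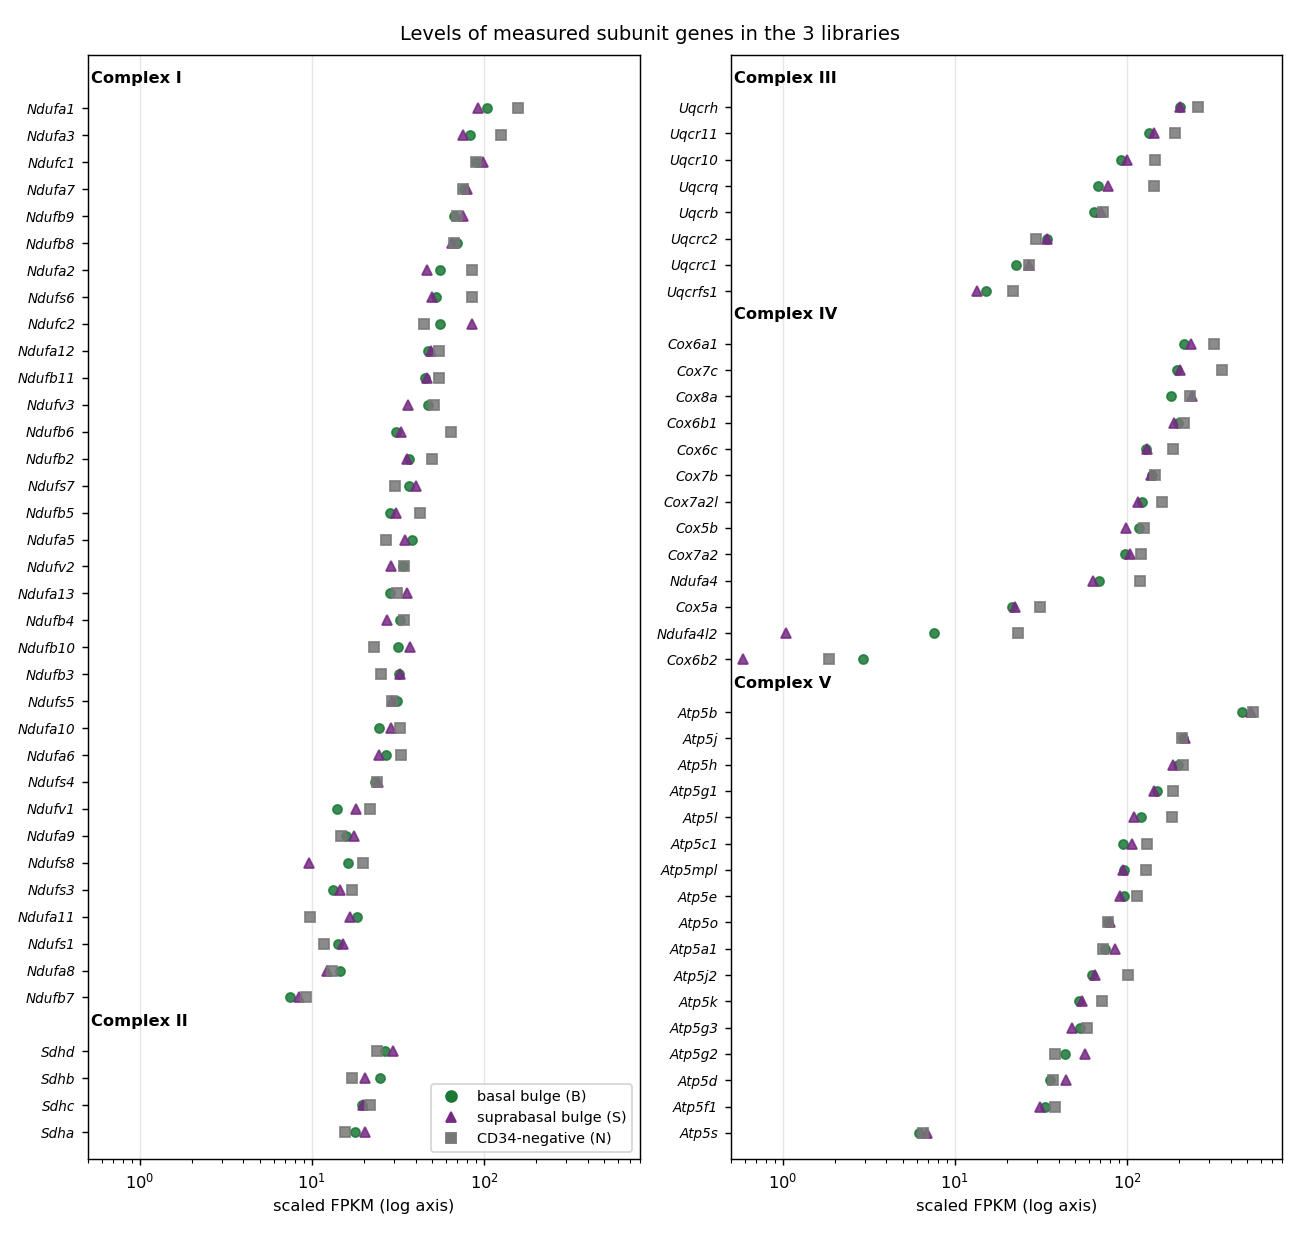
Scaled FPKM (log axis) of measured subunit genes in B (circles), S (triangles) and N (squares), by complex, 1 library each. Most genes have their 3 symbols close together, and Ndufa4l2 and Cox6b2 at the foot of complex IV are spread out.

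Basal bulge cells differed little from CD34-negative cells in these genes, with a slight shift to lower levels. The median log2 ratio of B over N (of scaled FPKM plus 1) was -0.21, against -0.04 for all measured genes and -0.13 for those with a mean of at least 10. Of the 77 genes, 56 (72.7%) were below 0, against 52.9% of all measured genes and 60.5% of those with a mean of at least 10. No subunit gene was higher in B by 2-fold, where 7.27% of all measured genes were, and 3 were lower (3.90%), where 7.10% of all measured genes were. These were Ndufa4l2, Uqcrq and Ndufb6. At 1.5-fold, 1 gene was higher, Ndufa11, with 14.4% of all measured genes past that fold, and 12 were lower (15.6%), with 16.7%. The SD of the log2 ratio over the subunit genes was 0.39, against 0.93 over all measured genes and 0.73 over the protein-coding ones. The lower and upper quartiles were -0.47 and 0.01 for the subunit genes, against -0.41 and 0.31 for all measured genes.

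Suprabasal bulge cells stood in much the same relation to CD34-negative cells, a comparison that uses the same N library. The median log2 ratio of S over N was -0.20, against 0.02 for all measured genes and -0.04 for those with a mean of at least 10. Of the 77 genes, 52 (67.5%) were below 0, against 48.2% of all measured genes and 53.7% of those with a mean of at least 10. No gene was higher by 2-fold (9.56% of all measured genes) and 1 was lower, Ndufa4l2 (1.3%, against 10.9%). At 1.5-fold 3 genes were higher, namely Ndufa11, Ndufb10 and Ndufc2, with 18.9% of all measured genes past that fold, and 14 were lower (18.2%), with 19.2%.

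The suprabasal and basal bulge were nearest to each other, in the subunit genes (SD of the log2 ratio 0.34) as over all measured genes (0.83). The median log2 ratio of S over B was 0.04, against 0.06 for all measured genes, with 45 genes above 0 and 32 below (41.6%, against 42.4% of all measured genes). No gene was higher in S by 2-fold (3.89% of all measured genes), and 2 were lower (2.60%, against 5.93%), Ndufa4l2 and Cox6b2. At 1.5-fold, Ndufc2 was higher (9.98% of all measured genes were) and Ndufs8 joined the lower genes, which made 3 (3.90%, against 11.4%). The lower and upper quartiles were -0.11 and 0.14.

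**Figure D2:**
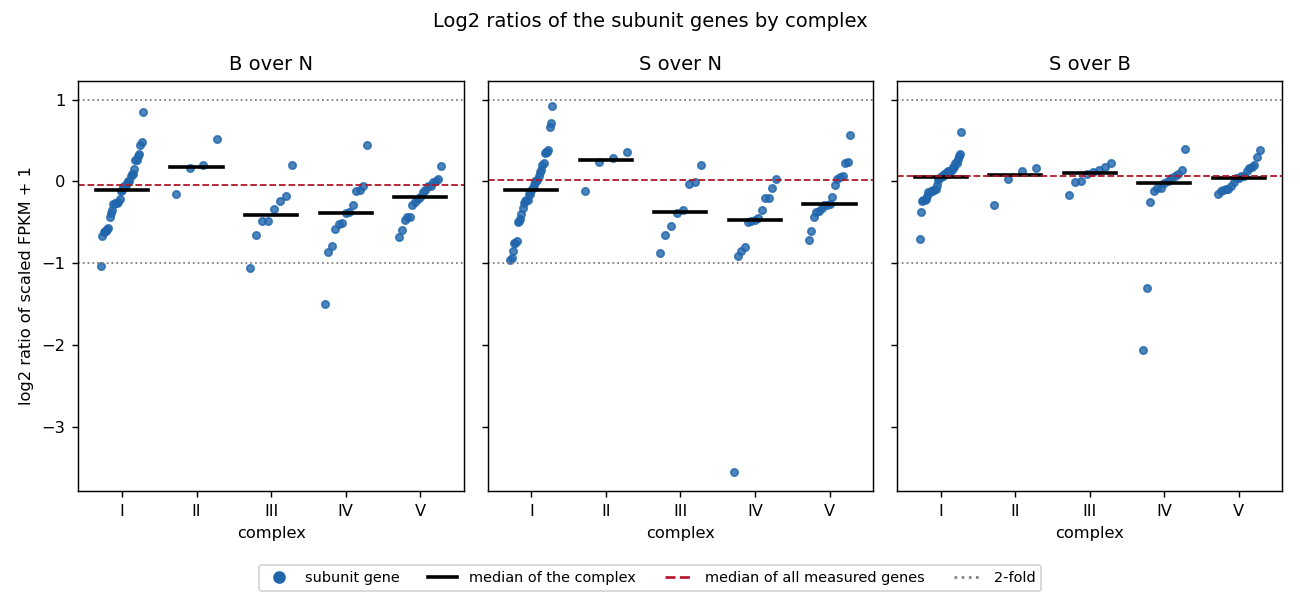
Log2 ratio of scaled FPKM plus 1 for each measured subunit gene (points), by complex and comparison, with the median of the complex (black bar), the median of all measured genes (dashed line) and 2-fold (dotted lines). Complexes III and IV sit lowest over N, complex II lies above 0, and S over B centres near 0 in every complex.

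Complex I showed no common shift. Its median level was 32.0 scaled FPKM in B and 32.8 in S, against 32.7 in N, and its median log2 ratios were -0.11 for B over N, -0.11 for S over N and 0.05 for S over B. The 7 core subunits, which include the carriers of the flavin and iron-sulfur clusters that move electrons, had medians of -0.25, -0.23 and 0.13 in the same comparisons. The 28 accessory subunits, which stabilise and assemble the complex, had -0.09, -0.09 and 0.03.

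Among the core genes, Ndufs8, which encodes an iron-sulfur cluster subunit (chr19:3908870-3912717, minus strand, mm10), had 16.3 scaled FPKM in B, 9.62 in S and 19.7 in N. S stood below both other libraries, with log2 ratios of -0.96 over N (counting interval -1.17 to -0.76) and -0.71 over B (-0.92 to -0.49). Ndufv1, which binds the flavin and NADH, had 13.9 in B, 18 in S and 21.8 in N. Ndufs1, the largest subunit, ran the other way, with 14.2 in B, 15.1 in S and 11.7 in N. Ndufs7, another iron-sulfur subunit, did so too, with 36.5 in B and 40.0 in S, against 30.2 in N. Ndufs3 and Ndufv2 had log2 ratios between -0.35 and 0.13 in all 3 comparisons. The core of this 1 complex thus held genes on either side of 0.

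Among the accessory genes, Ndufb6 (chr4:40270591-40279421, minus strand), a subunit of the membrane arm, had 30.8 scaled FPKM in B and 32.8 in S, against 64.1 in N. Its log2 ratio was -1.03 for B over N (counting interval -1.16 to -0.90) and -0.94 for S over N, and 0.09 for S over B. Its exons share 257 bp with the antisense gene Smim27, which had 9.19 in B and 11.6 in S, against 17.9 in N. The sources used here do not say whether strand was used in counting, so reads from this overlap may belong to either gene. Ndufa1, the complex I gene with the highest level in B and N, had 104 in B and 91.9 in S, against 157 in N. Ndufa2, Ndufa3 and Ndufs6, all small accessory subunits, lay between -0.85 and -0.61 over N in both bulge libraries.

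Other accessory genes were higher in the bulge. Ndufa11 (chr17:56717762-56724248, plus strand), a subunit of the membrane arm, had 18.3 scaled FPKM in B and 16.7 in S, against 9.72 in N, with log2 ratios of 0.85 (counting interval 0.61 to 1.08) and 0.72 (0.48 to 0.96). Ndufb10, a membrane-arm subunit, had 31.5 in B and 36.9 in S, against 22.9 in N. Ndufc2 (chr7:97400003-97407802, plus strand), also of the membrane arm, had 85 in S, against 55.3 in B and 44.5 in N. S was alone at the top, with a log2 ratio of 0.61 over B (counting interval 0.51 to 0.72) and 0.92 over N. Ndufa5 and Ndufb3 were higher in both bulge libraries by 0.34 to 0.48 on the log2 scale.

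Complex II, which also belongs to the tricarboxylic acid cycle, was the complex with medians above 0 over N: 0.18 for B, 0.26 for S, and 0.08 for S over B, each from 4 genes. Sdha, the flavin-binding catalytic subunit, had 17.9 scaled FPKM in B and 20.2 in S, against 15.5 in N. Sdhb, the iron-sulfur catalytic subunit, had 24.9 in B and 20.3 in S, against 17.1 in N, which gave the largest ratio of the complex, 0.52 for B over N (counting interval 0.39 to 0.65). Sdhc, a membrane anchor, had 19.4 in B and 19.9 in S, against 21.8 in N, and the other anchor, Sdhd, had 26.7 and 29.4, against 23.9. None of the 4 genes reached 1.5-fold in any comparison.

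Complex III stood lower in both bulge libraries. Its median level was 66.2 scaled FPKM in B and 74.2 in S, against 108 in N, with median log2 ratios of -0.41 and -0.37. In each, 7 of 8 genes (87.5%) were below 0, against 52.9% of all measured genes for B over N and 48.2% for S over N. Uqcrq (chr11:53427922-53430831, minus strand), which encodes the small ubiquinone-binding protein of the complex, had 68.2 in B and 77.4 in S, against 143 in N. Its log2 ratio was -1.06 for B over N (counting interval -1.17 to -0.95) and -0.88 for S over N. Uqcr10, another small subunit, had 91.7 in B and 99.4 in S, against 146 in N. Uqcrh, the hinge protein and the most abundant gene of the complex, had 204 in B and 204 in S, against 259.8 in N. Of the larger core proteins, Uqcrfs1, the Rieske iron-sulfur protein, was at 15.2 in B and 13.4 in S, against 21.7 in N. Uqcrc2 was the gene above 0, with 34.1 in B and 34.2 in S, against 29.7 in N.

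Complex IV was also lower over N in both bulge libraries, in 12 of 13 measured genes each (92.3%). Of all measured genes, 52.9% were below 0 for B over N and 48.2% for S over N. Cox4i1, whose symbol fits the naming pattern, was not among the genes found, so the values for this complex leave it out. Its median level was 122 scaled FPKM in B and 116 in S, against 145 in N, and its median log2 ratios were -0.39 for B over N, -0.47 for S over N and -0.02 for S over B. The 10 ubiquitous subunits had medians of -0.44, -0.40 and 0.03. Cox7c (chr13:86044816-86046904, minus strand), a small subunit found in all tissues, had 195 in B and 204 in S, against 356 in N, with log2 ratios of -0.87 (counting interval -0.92 to -0.81) and -0.80. Cox6a1, the non-muscle form of subunit VIa, had 214 in B and 236 in S, against 322 in N. Cox5a, one of the subunits nearest the mitochondrially encoded core, had 21.5 in B and 22.2 in S, against 31.3 in N, and Cox5b had 118 and 98.7, against 126. Cox8a was the exception in S, with 179 in B, 237 in S and 232 in N. Cox7a2l, which helps to join complexes III and IV, had 122 in B and 116 in S, against 160.4 in N.

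The gene with the widest spread of all 77 was Ndufa4l2 (chr10:127514939-127517152, plus strand), which encodes a paralog of Ndufa4 known to be induced under low oxygen by hypoxia-inducible factor. It had 7.55 scaled FPKM in B and 1.05 in S, against 23.2 in N. These levels rest on about 226 fragments in B and 28 in S, against 847 in N. N was 3.07-fold above B and 22.1-fold above S, and B was 7.19-fold above S. With the pseudocount, the log2 ratios were -1.50 for B over N (counting interval -1.69 to -1.31), -3.56 for S over N (-3.85 to -3.27) and -2.06 for S over B (-2.38 to -1.74). Ndufa4 itself, once assigned to complex I and now to complex IV, had 69.0 in B and 63.2 in S, against 119.6 in N. Per length, Ndufa4l2 came to 10.9% of Ndufa4 in B and 1.66% in S, against 19.4% in N. Without Ndufa4l2 the SD of the log2 ratio over the subunit genes was 0.37 for B over N, 0.42 for S over N and 0.25 for S over B, against 0.39, 0.56 and 0.34 with it.

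The tissue-restricted forms of complex IV other than Ndufa4l2 had low values or were listed at 0. Cox4i2, Cox6a2, Cox7b2, Cox8b and Cox8c, forms known from lung, muscle, testis or brown fat, were listed at 0 in all 3 libraries. A listed 0 need not mean a low level in these files, since Rpl22, a ribosomal protein gene, was listed at 0 in B with 552 in S and 845 in N. Cox7a1, the heart and muscle form, was under the minimum, with 0.399 scaled FPKM in B and 0.743 in S, against 0.532 in N. Cox6b2, the testis form of subunit VIb, had 2.91 in B, 0.590 in S and 1.86 in N, on about 43, 8 and 34 fragments. Its log2 ratio of S over B was -1.30 (counting interval -1.79 to -0.81), and its level was 0.315% of that of Cox6b1 in S and 1.47% in B.

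**Figure D3:**
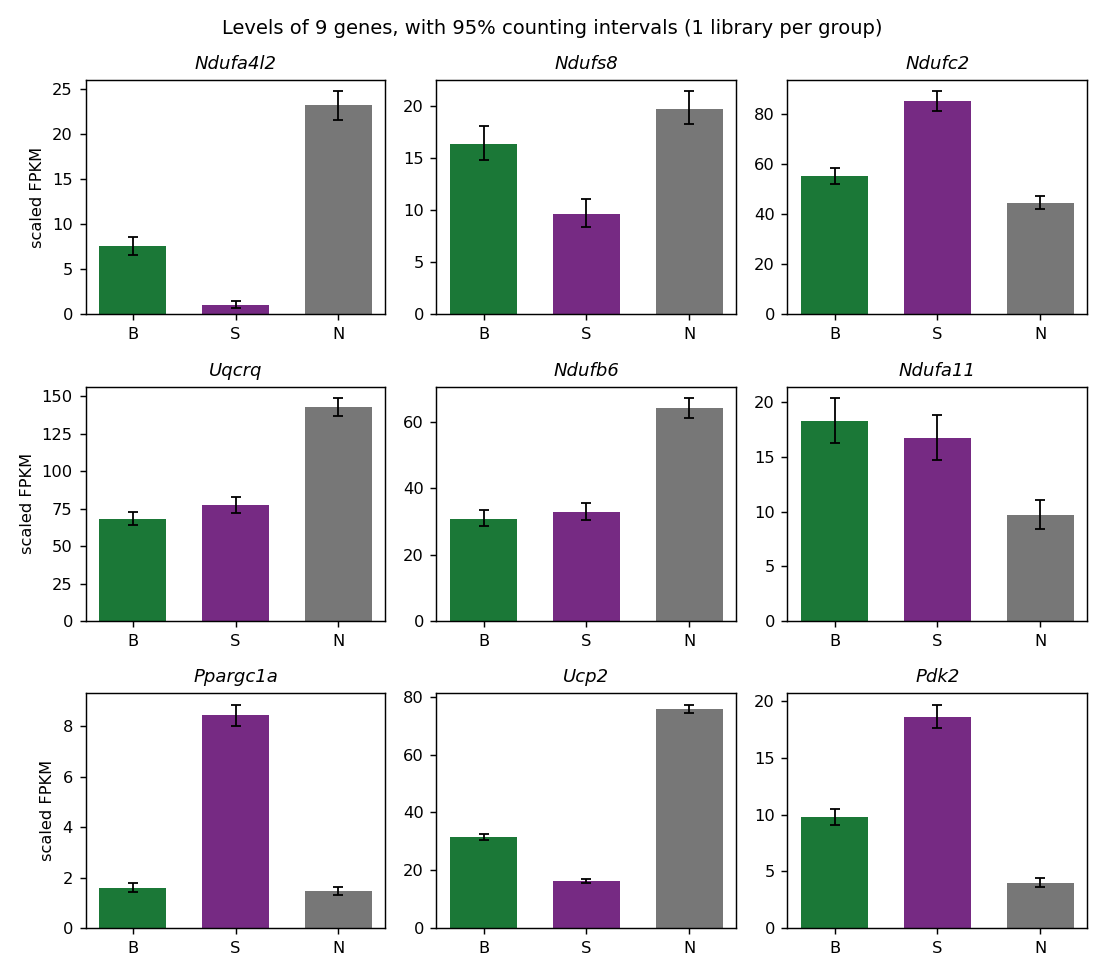
Scaled FPKM of 9 genes in B, S and N, 1 library each, with 95% counting intervals as bars. The upper 6 panels are subunit genes and the lower 3 are other mitochondrial genes; Ndufa4l2 is at 1.05 in S, Ndufc2 and Ppargc1a peak in S, and Uqcrq and Ndufb6 are highest in N.

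In complex V the differences were smaller. Its median level was 77.1 scaled FPKM in B and 85.3 in S, against 101 in N, its median log2 ratios were -0.19, -0.28 and 0.04 for B over N, S over N and S over B, and no gene reached 2-fold. Atp5b, the catalytic beta subunit, was the most abundant of all 77 genes, with 467 in B and 522 in S, against 540.1 in N. Atp5c1, the rotating gamma subunit, had 94.5 in B and 107 in S, against 131 in N. The 4 peripheral stalk genes, which hold the catalytic head still, lay between -0.28 and 0.05 in every comparison. The 4 small membrane subunits Atp5j2, Atp5k, Atp5l and Atp5mpl lay lower, with medians of -0.52 in B and -0.53 in S over N. Atp5l, which takes part in dimer formation, had 119.9 in B and 110.1 in S, against 183 in N.

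The 3 genes for the c ring encode the same mature protein with different import signals, and their mix differed. Atp5g1 had 149.8 scaled FPKM in B and 143 in S, against 184 in N. Atp5g2 had 43.7 in B and 57.0 in S, against 38.1 in N, so it was at 29.2% of Atp5g1 in B and 39.8% in S, against 20.7% in N. Atp5g3 had 53.6 in B and 47.8 in S, against 58.8 in N, which was 35.8%, 33.4% and 32.0% of Atp5g1.

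Subunit transcripts are short, and the ratio to N was lowest for the shortest transcripts in these libraries, though it did not rise evenly with length. The median transcript length was 732 bp for the subunit genes, against 2785 bp for the other measured protein-coding genes. For transcripts up to 500 bp, the median log2 ratio of B over N was -0.44 in 13 subunit genes and -0.38 in 126 other protein-coding genes, and that of S over N was -0.44 and -0.24. Without ribosomal proteins, 107 other genes of that length had -0.18 for B over N and -0.17 for S over N. Other protein-coding genes with a mean of at least 10 had -0.41 for B over N up to 500 bp (72 genes) and -0.18 between 500 and 700 bp (131 genes). For S over N these had -0.19 and -0.13. Between 500 and 700 bp the median was -0.29 in 23 subunit genes and -0.09 in 225 others for B over N, and -0.35 and -0.14 for S over N. Between 700 and 1000 bp it was -0.06 in 15 subunit genes and 0.03 in 472 others for B over N, and -0.08 and -0.02 for S over N. Between 1000 and 2000 bp it was -0.19 in 21 subunit genes and -0.01 in 2268 others for B over N, and -0.08 and 0.06 for S over N. Above 2000 bp the 5 subunit genes had medians of 0.03 for B over N and 0.23 for S over N, against -0.04 and 0.07 in 6748 others. With transcripts of at least 600 bp alone, 49 subunit genes had medians of -0.11 for B over N and -0.08 for S over N. All 5 small accessory genes of complex III and 9 of 13 measured genes of complex IV were at or under 700 bp, and all 4 genes of complex II were longer. Within complex IV the 9 short genes had a median of -0.51 for B over N and the 4 longer ones -0.24, but -0.48 and -0.41 for S over N. Within complex I the 14 short genes had -0.28 and the 21 longer ones -0.07 for B over N, and -0.25 and -0.08 for S over N. For B over N, the 5 short genes of complex III had -0.48 and the 3 longer ones -0.24. For S over N they had -0.39 and -0.01. The 8 short genes of complex V had -0.27 and the 9 longer ones -0.13 for B over N. For S over N they had -0.35 and -0.05. The part of length in the differences between complexes was not tested.

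**Figure D4:**
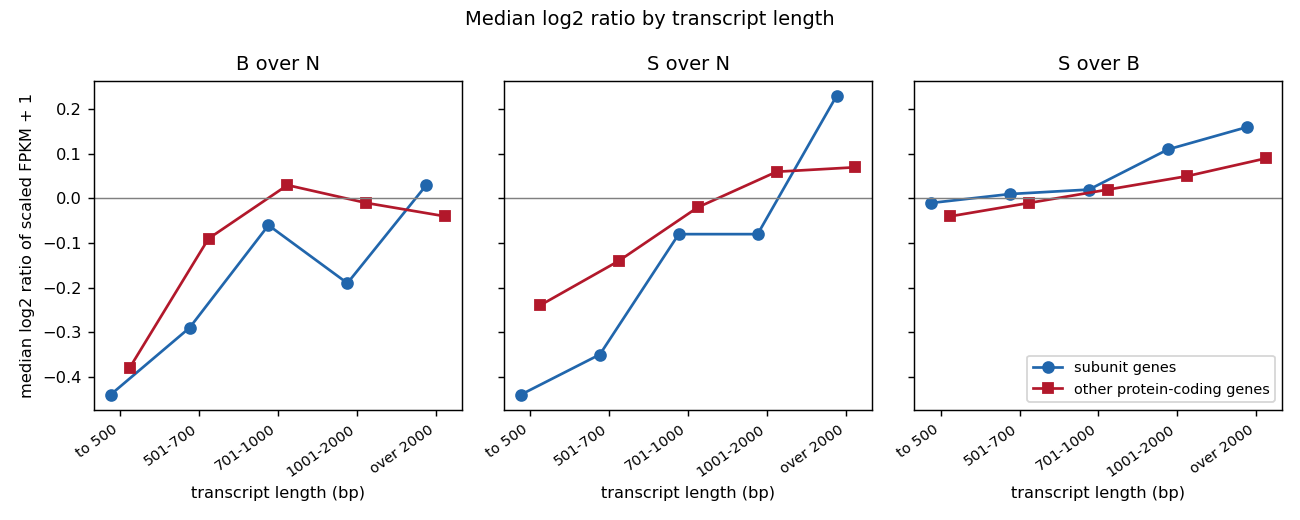
Median log2 ratio of scaled FPKM plus 1 by transcript length, for the subunit genes (circles) and the other measured protein-coding genes (squares). Over N both sets lie lowest for the shortest transcripts, and S over B changes less with length.

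Near-identical copies were listed at low levels beside the subunit genes. Of the measured subunit genes, 23 have a copy elsewhere in the genome with at least 95% identity over at least 150 bp, and no gene's copies held over 10% of its level. With copies added the medians were -0.21, -0.20 and 0.04 for B over N, S over N and S over B. Adding copies cannot show reads lost because they match several places. The exons of 19 measured genes overlap those of another gene by at least 75 bp.

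Assembly factors and mitochondrial ribosomal proteins had medians near 0 in all 3 comparisons. Of 50 assembly factors, 47 were measured, with median log2 ratios of -0.08 for B over N, 0.08 for S over N and 0.02 for S over B, and with 2 higher and 2 lower by 2-fold in B over N (4.26% each, against 7.27% and 7.10% of all measured genes) and 1 higher and 1 lower in S over N (2.13% each, against 9.56% and 10.9%). Ndufaf3, a complex I assembly factor, had 17.3 scaled FPKM in B and 20.4 in S, against 7.65 in N. Pet100, needed to build complex IV, had 25.5 in B and 17.9 in S, against 55.5 in N. Sco2, a copper chaperone of complex IV, had 3.53 in B and 3.86 in S, against 8.12 in N. The 78 mitochondrial ribosomal protein genes had medians of -0.05, -0.01 and 0.04, and 78 measured cytosolic ribosomal protein genes, whose transcripts are short too, had -0.30, -0.34 and -0.06. Of 5 genes of the respiratory chain and ATP synthase outside the naming pattern, Atpif1, the inhibitor of ATP synthase, had 213 in B and 234 in S, against 392 in N. Usmg5, a small membrane subunit of ATP synthase, had 215 in B and 212 in S, against 394 in N, while Cyc1, Cycs and Ndufab1 lay between -0.24 and 0.24 in every comparison.

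Among 14 measured regulators of mitochondrial genes, no gene was past 2-fold in B over N, and 1 (7.14%) was higher in S over N and in S over B, against 9.56% and 3.89% of all measured genes. This was Ppargc1a, which encodes the coactivator PGC-1alpha. It had 8.44 scaled FPKM in S, against 1.59 in B and 1.47 in N, with log2 ratios of 1.87 over B and 1.94 over N. The subunit genes had a median of 0.04 in S over B, and a part of Ppargc1a in their levels was not tested. Nrf1 had 3.34 in B and 4.54 in S, against 6.26 in N, and Tfam, which packages and transcribes mitochondrial DNA, had 4.35 and 4.10, against 2.58. The 13 mitochondrially encoded subunits had medians of 0.12 for B over N, 0.66 for S over N and 0.56 for S over B. All 13 were above 0 in S over N and in S over B, against 5911 and 6588 of 11575 measured genes. Their values ran from 1.17 (mt-Co3) to 6183 (mt-Co1) in B alone, where mt-Nd3 (3.63), mt-Nd4l (14.6), mt-Co2 (17.8) and mt-Atp6 (20.5) were low too. Whether so wide a range reflects RNA levels or the counting of these genes was not tested, and the medians include the low ones.

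Of 21 genes of the tricarboxylic acid cycle and pyruvate entry, 2 (9.52%) were higher by 2-fold in both bulge libraries over N, near the 7.27% of all measured genes for B over N and the 9.56% for S over N, and none was lower. Pdk2, a kinase that switches off pyruvate dehydrogenase, had 9.77 scaled FPKM in B and 18.6 in S, against 3.99 in N. Idh2, mitochondrial isocitrate dehydrogenase, had 15.0 in B and 21.7 in S, against 6.85 in N. Among 18 carriers, channels and supercomplex or ubiquinone genes, Vdac1, the outer-membrane channel, was the gene past 2-fold, lower in S over N (5.56%, against 10.9% of all measured genes), with 51.8 in B and 44.1 in S, against 92.1 in N.

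Of 8 measured antioxidant and uncoupling genes, 1 was higher and 1 lower by 2-fold in B over N (7.27% and 7.10% of all measured genes were), and 1 was higher and 3 were lower in S over N (9.56% and 10.9%). Ucp2, an inner-membrane carrier of the uncoupling protein family, had 31.4 scaled FPKM in B and 16.2 in S, against 76.0 in N. Gpx4, which reduces lipid peroxides, had 286 in B and 166 in S, against 481 in N, and Prdx5, a peroxiredoxin, had 34.8 and 21.1, against 53.4. Txnrd2, the mitochondrial thioredoxin reductase, ran the other way, with 22.3 in B and 15.1 in S, against 5.09 in N. Ucp1, the brown fat uncoupling protein, was listed at 0 in all 3 libraries.

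**Figure D5:**
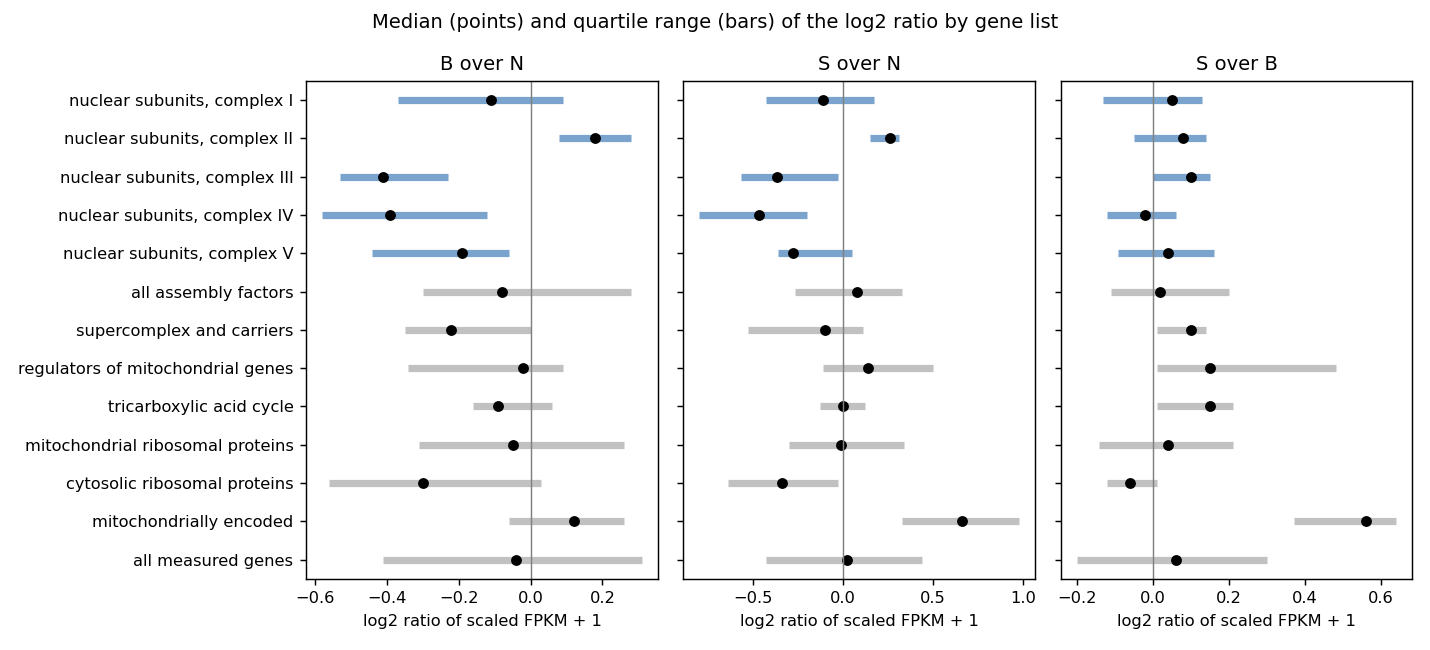
Median (points) and quartile range (bars) of the log2 ratio of scaled FPKM plus 1 for the nuclear subunits of each complex and for related gene lists. Complexes III and IV and the cytosolic ribosomal proteins lie below 0 over N, complex II lies above 0, and the mitochondrially encoded genes lie highest in S over N and S over B.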

How the data were processed

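The data were the FPKM values per Ensembl gene that the authors deposited for 3 libraries, with 49452 rows each. For B the unit was taken from the values, whose column is not headed FPKM. Per the submitters' processing notes, which give no roles, the tools were Cufflinks 2.1.1, TopHat2 2.0.12 and DESeq2, with mm10 as build. Epidermis was freed with thermolysin (0.25 mg/ml for 1 hour), and RNA was preamplified from poly(T) and random primers and read as pairs of 75 bp, per the labels' protocols. That priming retains RNA without a poly(A) tail, and FPKM values of short transcripts are sensitive to fragment length. Symbols were found for 49195 rows in a table of gene names and in GENCODE M21. Depth came from the spacing of low values in long genes, of which 89.8% to 93.6% lay within 0.1 of a whole fragment (20% by chance). Median-of-ratios factors over 18559 genes above 0 in all libraries were 0.981 for B, 0.923 for S and 1.10 for N. A minimum mean of 1 kept 11575 genes (9916 protein coding). Log2 ratios are on the scale of scaled FPKM plus a pseudocount of 1, which understates differences of low genes, and calls were made at 2-fold. Fragments were approximated from FPKM, depth and the shortest principal transcript in GENCODE M21. Genes named were drawn mainly from those past 2-fold, the 6 highest and 6 lowest per comparison, and the most abundant of each complex. The core subunits, members with a paralog, and the extremes of each related list were drawn on too. Not every gene of these kinds is named, and some other genes of the same complexes and lists were added. The values of 1 core subunit gene are not reported here. Members and lists were chosen with earlier results of these data known. Steps ran in python 3.11.15 with bedtools 2.31.1 and blastn 2.17.0, and were tested on simulated data.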

Additional observations from a re-analysis of the deposited data

How the results depend on the processing

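With 1 library per group, no replicate could be left out. No paired analysis was possible because each group holds 1 library. In values as deposited, the median log2 ratio of the subunit genes was -0.38 for B over N and -0.46 for S over N, with 9 genes lower in S over N. The median of all measured genes was -0.18 in each. Relative to that median the subunit genes lay at -0.20 and -0.27, against -0.17 and -0.22 with scaling. The share of all measured genes past 2-fold is not given for values as deposited, nor for the other scalings and pseudocounts below. The 9 genes and the counts below under those settings thus have no background beside them. Scaled to the same protein-coding total, where all measured genes had a median of 0.08 for B over N, the subunit genes had -0.06, with 1 lower in B over N and 1 higher in S over N. Scaling on protein-coding genes alone left 2 lower in S over N, and a pseudocount of 0.1 left 3. A pseudocount of 5, or a minimum mean of 10, left 1 lower in S over B. At 1.5-fold the higher and lower counts were 1 and 12 for B over N and 3 and 14 for S over N, and 1 was higher in S over B. Transcripts of at least 600 bp had a median of -0.08 in S over N. Adding near-identical copies, chosen after seeing the data, changed no median. Of 135 ratios of named subunit genes, 94 moved beyond counting error in values as deposited and 57 with the same total, and none that passed 2-fold changed sign. Counting error limits Cox6b2 and Ndufa4l2 in S, with 8 and 28 fragments.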

Other observations

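Because Ndufa4l2 is known as a target of hypoxia-inducible factor, some other genes known to respond to it were read. They were picked after their own values had been seen, and they did not move as one. Whether the factor has a part in the differences of Ndufa4l2 was not tested. Vegfa, a growth factor for blood vessels, had 1.20 scaled FPKM in B and 0.788 in S, against 4.38 in N, and Slc2a1, a glucose transporter, had 23.0 and 21, against 49.4, so both were lower in the bulge libraries, as Ndufa4l2 was. Ankrd37 had 2.41 in B and 2.51 in S, against 3.75 in N, and Higd1a had 23 and 25.2, against 42.6. These were lower in the bulge libraries too. Egln3, an oxygen-sensing prolyl hydroxylase, had 5.34 in B and 16.2 in S, against 2.88 in N, and Ndrg1 had 10.5 and 33.1, against 5.99, so both were highest in S, where Ndufa4l2 was lowest. Hif1a, which encodes the oxygen-regulated subunit of the factor, had 18.6 in B and 20.2 in S, against 32.1 in N. Epas1, read as well and under the minimum, had 0.684 in B and 0.135 in S, against 1.16 in N.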
